A study of Mus musculus with 8 samples.

Results

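The 76 genes described here are named as proteins of the mitochondrial ribosome. By symbol, 47 belong to its large subunit (Mrpl) and 29 to its small subunit (Mrps). Subunits are by symbol unless place is named, and Mrps18a, Mrps30 and Mrps36, whose place differs, are described below. All 76 genes were measured in quadriceps muscle of mice kept at low oxygen or in room air. They were chosen by name alone. Every probe set that the array annotation pairs with exactly 1 symbol beginning with Mrpl or Mrps and a digit was taken, which gave 156 probe sets, and each gene was read from its probe set with the highest mean. All 76 genes were among the 13257 genes tested, out of 18194 with a probe set of 1 symbol. Of the 156 probe sets, 137 passed the filter on dim signals and 19 did not. Mrpl30 and Mrpl53 share their probe sets with another gene and are not analysed here.

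The mice were adult males of the C57Bl/10 strain. The 4 control samples came from mice at room condition and the 4 hypoxia samples from mice in a closed chamber, where oxygen was lowered little by little from 21% to 8% during 1 week and then held at 8% for 7 days, so that the experiment took 2 weeks in all. Total RNA of each quadriceps sample was read on 1 Affymetrix mouse 430 2.0 array, whose probes lie near the 3' ends of transcripts. The labels describe the chamber for the hypoxia mice only, so housing in it and low oxygen cannot be told apart. The labels do not say that each sample came from a separate animal, so the p-values measure the spread between these samples only. In whole muscle, fewer cells of a type and less RNA per cell cannot be told apart.

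The mitochondrial ribosome translates the few messenger RNAs encoded by mitochondrial DNA, all of which specify subunits of the respiratory chain and of ATP synthase. Its RNAs come from mitochondrial DNA, whereas all its proteins are encoded in the nucleus, made in the cytosol and imported. The small subunit binds and decodes the messenger RNA and the large subunit joins the amino acids. Many of the proteins descend from bacterial ribosomal proteins and others were added in the mitochondrial lineage. Skeletal muscle depends on this ribosome for its oxidative capacity.

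After hypoxia 24 of the 76 genes fell, 11 rose and 41 did not pass the test (limma on log2 of signal + 16, Benjamini-Hochberg adjusted p under 0.05 over all 13257 genes). Over all genes tested, 33.6% passed, 14.8% as higher and 18.8% as lower. Of the mitochondrial ribosomal protein genes 46.1% passed, 14.5% as higher and 31.6% as lower, so the share that rose lay near that of all genes, while the share that fell was larger. The median change of the 76 genes was -0.27 on the log2 scale, against -0.04 for all genes. The quartiles of the members' changes were -0.64 and 0.16, and the extremes were -1.58 for Mrps11 and 1.40 for Mrpl32. The change was negative in 53 members and positive in 23. Changes of at least 2-fold were seen for 8 members that fell and 2 that rose. The family therefore did not move as 1 block, and members of both subunits lay on either side of no change. Of the 11 members that rose, 9 kept their call without the array hypoxia 1, which stands apart as described next, and the totals without it were 9 higher and 25 lower. Over all genes 14.4% were then higher and 18.8% lower.

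**Figure D1:**
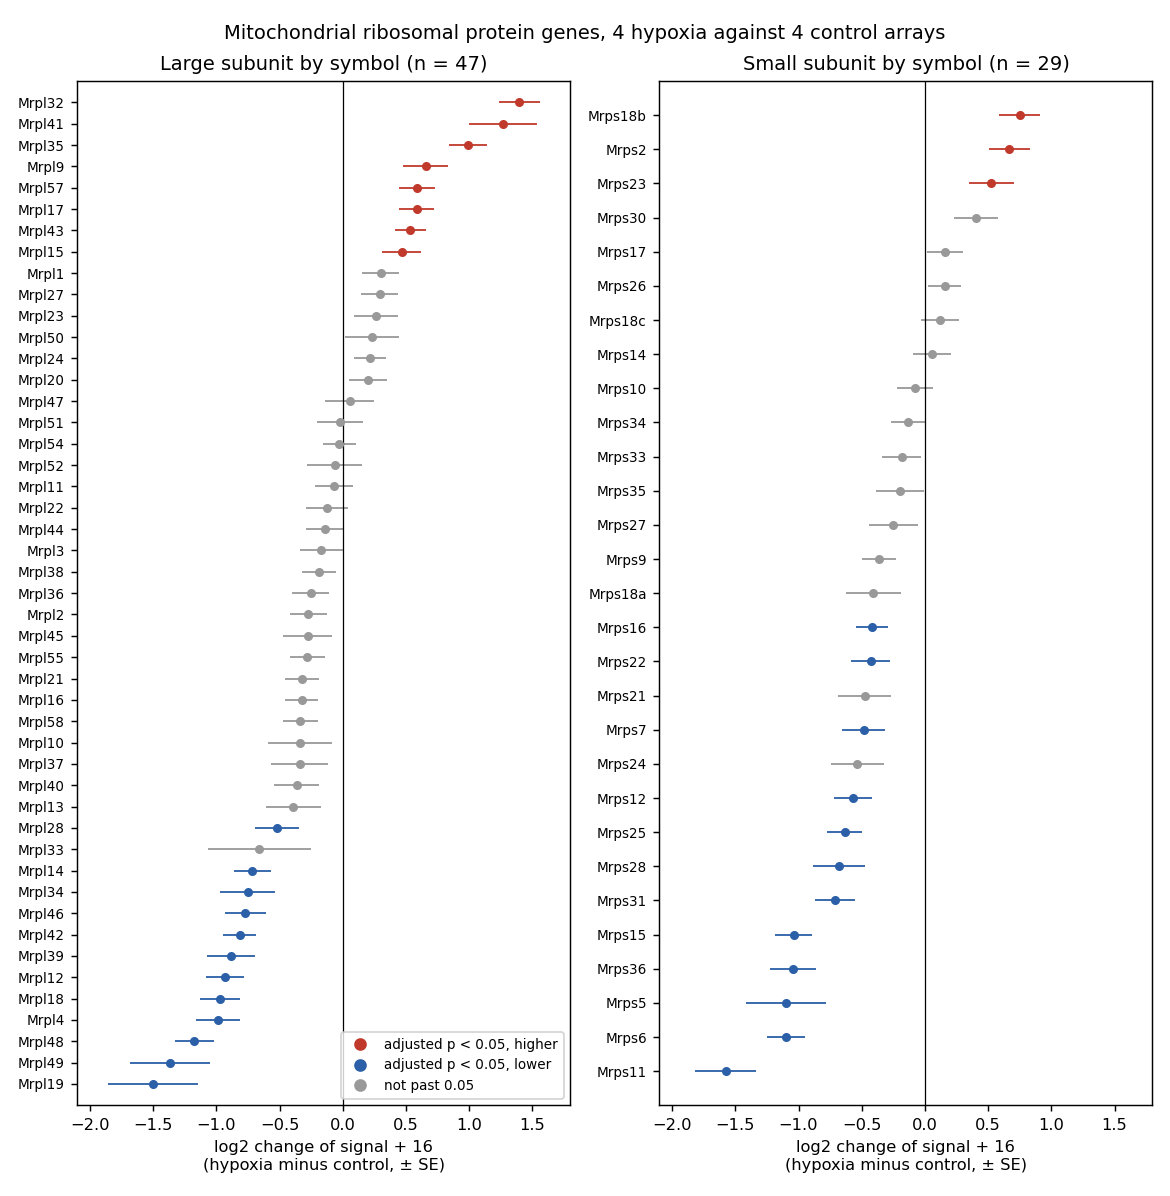
Log2 change of signal + 16, hypoxia minus control, with its standard error for each of the 76 genes, 47 large-subunit genes on the left and 29 small-subunit genes on the right, from 4 arrays a group. Red points are the 11 members that rose, blue points the 24 that fell and grey points the 41 that did not pass the test, and both subunits hold all of these kinds.

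The arrays had been scaled to one trimmed mean of 500.0, and their median signal ran from 127.6 to 164.6. Hypoxia 1 stood apart from the other arrays in RNA quality. For Gapdh, the probe set at the 3' end gave 3.44 times the signal of that at the 5' end in this array, against 0.776 to 0.807 in the controls and 0.801 to 0.874 in the other hypoxia arrays, and the beta-actin ratio of this array was 2.53, against 1.09 to 1.25 and 1.40 to 1.59. The beta-actin ratio was thus higher in every hypoxia array than in every control. Among the 4 hypoxia arrays, hypoxia 1 gave the highest value of 31 members and the lowest of 35, so it was an extreme in 66 of 76 members, compared with 12 for hypoxia 2, 41 for hypoxia 3 and 33 for hypoxia 4. All 8 muscle fibre markers passed the filter on dim signals. Of these 7 fell, and their summed signal was 421096 to 504466 in the controls and 256024 to 344442 in the hypoxia arrays. All 4 fibroblast markers fell (sum 37883 to 41280 against 13169 to 17324), as did the 3 adipocyte markers tested out of 4 (28481 to 58910 against 17198 to 26595). Of the 3 neutrophil markers tested out of 5, 2 rose, with sums of 354 to 745 against 2737 to 5258. Of 6 macrophage markers 1 rose and 2 fell (8014 to 11919 against 7628 to 13746), and of 4 endothelial markers 1 fell (2454 to 5116 against 1933 to 4361). The tested markers of Schwann, erythroid and satellite cells, 1 of each, did not pass. The part of these cell types and of RNA quality in the changes below was not tested, beyond the values given without hypoxia 1.

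Several members are encoded head to head with another gene, the starts of both lying close together on opposite strands, so that 1 short stretch of DNA is the upstream region of both. The bases between the starts are shown for 5 such pairs that the results turn on, together with the 150 bases before the starts of Mrpl9 and Mrpl39, which hold the same motif but differ in the direction of their change. All are from RefSeq on the mouse build GRCm38.p6, 5' to 3' on the strand of the mitochondrial ribosomal protein gene, and end at its start. The shared stretches are Mrps11 with Mrpl46 (chr7:78783090-78783130, + strand), Mrpl32 with Psma2 (chr13:14613038-14613241, - strand), Mrpl18 with Tcp1 (chr17:12916092-12916328, - strand), Mrpl49 with Fau (chr19:6057756-6057946, - strand) and Mrpl43 with Twnk (chr19:45006443-45006557, - strand). The single stretches lie at chr3:94443186-94443335 (+ strand) for Mrpl9 and chr16:84735245-84735394 (- strand) for Mrpl39. Capitals mark the letters GCGC followed after any 2 bases by GCGC again, a core of the site of NRF-1 (nuclear respiratory factor), in Mrpl32, Mrpl9 and Mrpl39, and CCGGAAG, a core of ETS-family sites such as that of GABP, in Mrpl43. Matches in the 250 bases before a start but not wholly inside a printed stretch are not marked. These are CCGGAAG for Mrpl18 and AAGATGGCG, a core of the YY1 site, for Mrps11. Both reach past the start of the neighbour, into the neighbour's gene.
Mrps11 / Mrpl46: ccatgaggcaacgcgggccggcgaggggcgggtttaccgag
Mrpl32 / Psma2: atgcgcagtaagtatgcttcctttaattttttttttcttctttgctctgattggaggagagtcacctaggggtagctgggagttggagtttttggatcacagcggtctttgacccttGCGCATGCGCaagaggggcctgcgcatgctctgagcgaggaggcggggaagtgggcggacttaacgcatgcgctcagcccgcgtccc
Mrpl18 / Tcp1: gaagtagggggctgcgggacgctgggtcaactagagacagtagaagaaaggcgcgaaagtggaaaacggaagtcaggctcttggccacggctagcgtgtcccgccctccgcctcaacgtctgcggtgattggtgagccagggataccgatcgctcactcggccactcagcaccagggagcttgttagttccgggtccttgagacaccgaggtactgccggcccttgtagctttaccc
Mrpl49 / Fau: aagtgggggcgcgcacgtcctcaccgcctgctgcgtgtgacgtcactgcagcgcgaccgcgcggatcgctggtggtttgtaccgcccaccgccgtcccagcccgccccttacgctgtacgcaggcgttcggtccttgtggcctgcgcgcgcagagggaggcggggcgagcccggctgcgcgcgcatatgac
Mrpl43 / Twnk: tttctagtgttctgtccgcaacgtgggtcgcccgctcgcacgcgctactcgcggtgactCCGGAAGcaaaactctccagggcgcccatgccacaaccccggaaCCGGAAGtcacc
Mrpl9: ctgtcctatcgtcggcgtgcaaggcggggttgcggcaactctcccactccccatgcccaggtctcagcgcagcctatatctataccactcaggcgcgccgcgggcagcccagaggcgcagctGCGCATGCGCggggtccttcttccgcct
Mrpl39: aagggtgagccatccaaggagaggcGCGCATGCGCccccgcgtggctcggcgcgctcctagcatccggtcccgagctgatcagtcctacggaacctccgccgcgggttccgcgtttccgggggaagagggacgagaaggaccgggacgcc

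Among the large-subunit genes 8 rose, 12 fell and 27 did not pass, with a median change of -0.25. Mrpl32, a counterpart of a bacterial protein that is cut by the m-AAA protease before it joins the ribosome, gave the largest rise of any member. Its signal was 2541, 2890, 2498 and 2528 in the 4 control arrays and 8942, 7408, 5422 and 6293 in the 4 hypoxia arrays. All hypoxia arrays lay above all controls. The change was 1.40 ± 0.16 (SE), a 2.63-fold rise from 2614 ± 185 to 7016 ± 1519 (SD, n = 4 each; limma adjusted p = 3.39e-05).

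Mrpl41, a protein found only in mitochondrial ribosomes, had signals of 2012, 2139, 2362 and 2448 in the controls and 10372, 5729, 3560 and 4016 after hypoxia. The groups did not overlap, but hypoxia 1 was far above the other hypoxia arrays. The change was 1.27 ± 0.27 (adjusted p = 0.00284), and without hypoxia 1 it was 0.70 (adjusted p = 0.0104). Its other probe set past the filter rose by 0.84. Mrpl35, another bacterial counterpart, read 3417, 3812, 3672 and 3105 in the controls and 7839, 7314, 5360 and 7634 after hypoxia, again without overlap. This is a rise of 0.99 ± 0.15 (adjusted p = 0.00029). The probe sets of Mrpl35 disagreed, however. A dimmer one fell by 1.05 (adjusted p = 0.00224 over all probe sets), from a mean signal of 809 to 394, and the remaining one gave -0.74 (adjusted p = 0.0518), so the direction of this gene is uncertain.

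The other large-subunit genes that rose did so by less. Mrpl9 had signals of 1740, 2245, 2639 and 2458 in the controls and 4072, 3629, 2681 and 3969 after hypoxia, which do not overlap, although hypoxia 3 lay just above the highest control. Its rise of 0.65 ± 0.18 (adjusted p = 0.012) did not pass without hypoxia 1 (0.48, adjusted p = 0.0693), and its other probe sets gave 0.40 and 0.03, neither past the test. Mrpl57, one of the 7 members not classified here by origin, read 3586, 3496, 4004 and 4113 in the controls and 4550, 6106, 6176 and 6198 after hypoxia. In this gene hypoxia 1 was the lowest of its group and still above every control, and the rise was 0.59 ± 0.14 (adjusted p = 0.00685). Mrpl17, a bacterial counterpart, went from 2639, 2943, 2648 and 2567 to 3406, 4224, 4066 and 4608, a rise of 0.59 ± 0.14 (adjusted p = 0.00535). The groups of Mrpl17 were apart. The dimmer probe sets of Mrpl57 (-0.67) and Mrpl17 (-0.11 and -0.46) had the opposite sign and did not pass. The other large-subunit genes that rose, Mrpl43 and Mrpl15, changed by 0.54 and 0.47, and Mrpl15 did not pass without hypoxia 1.

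With all arrays, the largest fall of a large-subunit gene was that of Mrpl19, a bacterial counterpart. Its signals were 1000, 808, 596 and 768 in the controls and 96, 333, 412 and 357 after hypoxia. The groups were apart and hypoxia 1 was the lowest array, and the change was -1.50 ± 0.35 (adjusted p = 0.00547), or -1.06 without hypoxia 1 (adjusted p = 0.00113). Without that array Mrpl33 (-1.20), Mrpl48 (-1.19), Mrpl49 (-1.11) and Mrpl39 (-1.08) fell by more than Mrpl19. Of its other 3 probe sets, 1 fell by 2.57 and the others gave -0.18 and 0.22 and did not pass. Mrpl49, a mitochondrion-specific protein, read 729, 975, 925 and 1082 in the controls and 196, 225, 544 and 588 after hypoxia. All hypoxia arrays were lower than all controls, hypoxia 1 and 2 by the most, and the change was -1.37 ± 0.32 (adjusted p = 0.00491). The other probe set of Mrpl49 fell by 1.08.

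Mrpl48, also specific to mitochondria, had signals of 2835, 3367, 4510 and 3196 in the controls and 1558, 1543, 1404 and 1541 after hypoxia. The hypoxia arrays lay close together, well below the controls, and the fall was 2.25-fold (-1.17 ± 0.16, adjusted p = 0.000105). Both other probe sets of Mrpl48 were negative, at -0.35 and -0.87. Mrpl42, named for its high signal, fell in every hypoxia array, from 21260, 20324, 22214 and 19785 to 13434, 10936, 10523 and 12774, a change of -0.82 ± 0.13 (adjusted p = 0.000376). Mrpl34, a bacterial counterpart, read 1942, 1553, 1593 and 1501 in the controls against 572, 1100, 1231 and 1119, without overlap. Its change of -0.75 ± 0.22 (adjusted p = 0.0182) did not pass without control 1 (-0.67, adjusted p = 0.0556), and a dimmer probe set gave 0.26.

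A further known role is held by the proteins of Mrpl12 and Mrpl58. Mrpl12, which also binds the mitochondrial RNA polymerase, fell from 5002 ± 615 to 2618 ± 391 (SD, n = 4 each), a change of -0.93 ± 0.15 (adjusted p = 0.000444). Mrpl58, a peptidyl-tRNA hydrolase built into the ribosome, gave -0.34 and did not pass (adjusted p = 0.0839), although its groups did not overlap. The remaining large-subunit genes that fell, Mrpl4, Mrpl18, Mrpl39, Mrpl46, Mrpl14 and Mrpl28, had changes between -0.99 (Mrpl4) and -0.52 (Mrpl28), and Mrpl28 did not pass without hypoxia 1. The other probe sets of Mrpl28 gave -1.20 and -1.07 (adjusted p = 0.000126 and 0.00245 over all probe sets).

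Other large-subunit genes named for a high signal did not pass. Mrpl51, with signals of 16009, 15273, 20908 and 18571 in the controls and 24368, 17382, 13781 and 15379 after hypoxia, gave -0.02 ± 0.18 (adjusted p = 0.946). The groups overlapped, with hypoxia 1 the highest of all 8 arrays. A dim probe set of Mrpl51 fell by 0.88, from a mean of 451 to 237, so this gene too is read differently by its probe sets. Mrpl23 read 5191, 5849, 5795 and 5763 against 9059, 7661, 4945 and 6142, with overlap, and gave 0.26 ± 0.18 (adjusted p = 0.282). Mrpl33 was singled out after its values were seen, because hypoxia 1 alone sets its result. It read 6559, 7161, 5480 and 6706 in the controls and 12422, 3798, 2142 and 2716 after hypoxia, which gave -0.66 ± 0.41 (adjusted p = 0.241) with hypoxia 1 and -1.20 ± 0.18 (adjusted p = 0.000394) without it. A dim probe set of Mrpl33 had the opposite sign over all arrays, at 0.79 (adjusted p = 0.0573 over all probe sets), from a mean of 124 to 235.

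**Figure D2:**
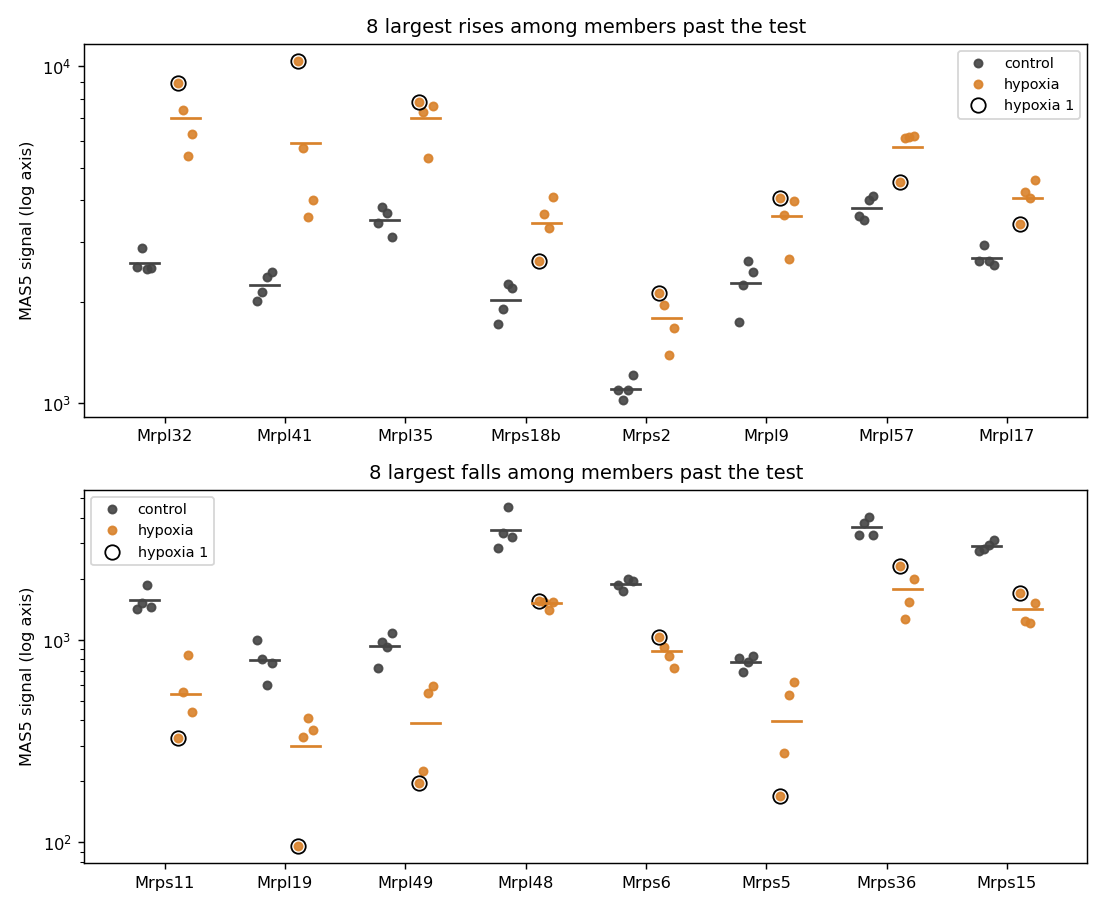
Signals on a log axis in each of the 4 control and 4 hypoxia arrays for the 8 members with the largest rise (top) and the 8 with the largest fall (bottom) among those that passed the test, with horizontal lines at the group means and circles around hypoxia 1. The groups are apart in all 16 genes, and hypoxia 1 is the highest of the hypoxia arrays in Mrpl32, Mrpl41, Mrpl35, Mrps2 and Mrpl9 among the rises and the lowest in Mrps11, Mrpl19, Mrpl49 and Mrps5 among the falls.

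Among the small-subunit genes 3 rose, 12 fell and 14 did not pass, with a median change of -0.41. Mrps11, a bacterial counterpart on the platform of the small subunit, had the largest fall of any member. Its signals were 1421, 1514, 1859 and 1455 in the controls and 329, 553, 838 and 440 after hypoxia. Every hypoxia array lay below every control, and the fall was 2.98-fold, from 1562 ± 201 to 540.0 ± 219 (SD, n = 4 each), a change of -1.58 ± 0.24 (adjusted p = 0.000257).

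Mrps6, Mrps5 and Mrps15 are bacterial counterparts too. Mrps6 read 1866, 1745, 1986 and 1948 in the controls and 1037, 923, 833 and 722 after hypoxia, which do not overlap, and fell by 1.10 ± 0.15 on the log2 scale (adjusted p = 0.000119), with its other probe set at -0.77. Mrps5 read 812, 694, 775 and 832 in the controls and 168, 275, 531 and 621 after hypoxia. Here the hypoxia arrays were spread widely below the controls, and the change of -1.10 ± 0.32 (adjusted p = 0.0177) was -0.76 without hypoxia 1 and did not pass without hypoxia 2 (-0.98, adjusted p = 0.0553). A second probe set of Mrps5 fell by 0.69, and 2 dim ones gave -0.31 and 0.03. Mrps15 read 2742, 2797, 2949 and 3098 in the controls and 1702, 1235, 1204 and 1517 after hypoxia. The groups of Mrps15 were far apart, its change was -1.04 ± 0.15 (adjusted p = 0.000176) and its other probe set fell by 1.15.

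Mrps28, named for its high signal, read 4690, 5755, 4702 and 4793 in the controls and 2787, 2254, 3017 and 4838 after hypoxia. Hypoxia 4 lay within the control range, and the fall of 0.68 ± 0.20 (adjusted p = 0.0208) did not pass without control 2 (-0.61, adjusted p = 0.0654) or without hypoxia 2 (-0.53, adjusted p = 0.0688). Mrps21 gave -0.48 ± 0.21 (adjusted p = 0.105) with all arrays. Its signals were 5056, 5902, 5248 and 5320 against 5909, 4019, 2487 and 3730. Hypoxia 1 was the only hypoxia array of Mrps21 that did not lie below all controls, and without it the change was -0.68 (adjusted p = 0.00774). Mrps14 read 6461, 7594, 6386 and 6481 against 5947, 6733, 6519 and 9092, which overlap, and gave 0.06 ± 0.15 (adjusted p = 0.815). The other small-subunit genes that fell were Mrps12, whose product lies at the decoding centre, Mrps25, Mrps31, Mrps7, Mrps22 and Mrps16, with changes between -0.71 (Mrps31) and -0.42 (Mrps16). Of these, Mrps7 and Mrps22 did not pass without hypoxia 1.

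Of the small-subunit genes that rose, Mrps2, a bacterial counterpart, read 1095, 1024, 1092 and 1212 in the controls and 2123, 1960, 1394 and 1667 after hypoxia, without overlap. Its rise was 0.67 ± 0.16 (adjusted p = 0.00572), and a second probe set gave -0.32, not past the test. Mrps23 rose by 0.53, with overlap between its groups, and did not pass when any 1 of the control arrays, or hypoxia 2, 3 or 4, was left out. Without hypoxia 1 its rise was 0.70 (adjusted p = 0.00203). The other probe sets of Mrps23 rose by 0.66 and 0.92 (adjusted p = 0.00941 and 0.00133 over all probe sets).

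The 3 related genes Mrps18a, Mrps18b and Mrps18c, of which only Mrps18c is classed below as having a bacterial counterpart, had changes of different size and sign. Mrps18b read 1722, 1905, 2253 and 2194 in the controls and 2649, 3638, 3314 and 4097 after hypoxia, all above the controls, and rose by 0.75 ± 0.16 (adjusted p = 0.00335). Mrps18c read 3177, 4301, 3480 and 4061 against 4443, 4417, 3999 and 3428, with overlap, and gave 0.12 ± 0.15 (adjusted p = 0.587). Mrps18a, whose protein sits in the large subunit in spite of its symbol, read 3148, 3481, 3861 and 3263 against 1583, 2469, 3159 and 3595. Its hypoxia arrays ranged from far below the controls to inside their range, with a change of -0.41 ± 0.22 (adjusted p = 0.177), or -0.17 (adjusted p = 0.427) without hypoxia 1. The differences between the changes of these genes were not tested.

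Symbols and places in the ribosome also part for Mrps30 and Mrps36. Mrps30, whose protein is in the large subunit, read 1609, 1098, 1390 and 1176 against 1542, 2173, 1752 and 1528, with overlap, and gave 0.40 ± 0.17 (adjusted p = 0.0879). With median centring of the arrays it passed (0.49, adjusted p = 0.0432). Mrps36 is now known as a subunit of the oxoglutarate dehydrogenase complex of the citric acid cycle and not of the ribosome. It read 3282, 3768, 4020 and 3293 in the controls and 2311, 1261, 1536 and 1983 after hypoxia, without overlap, and fell by 1.04 ± 0.19 on the log2 scale (adjusted p = 0.00086).

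The large and the small subunit were then compared within each array, as the median of each gene's log2 value minus its mean in the controls. The small-subunit median was -0.33, -0.42, -0.42 and -0.13 in hypoxia 1 to 4, and the large-subunit median -0.28, -0.20, -0.24 and -0.12. Both were below the control range in all 4 hypoxia arrays, where the controls lay between -0.08 and 0.06 for the small and between -0.03 and 0.04 for the large subunit. The median of all genes was -0.07, -0.04, 0.01 and -0.01 in hypoxia 1 to 4. Its controls lay between 0.0016 and 0.016, so in hypoxia 1, 2 and 4 it was below its control range too, by less. Large minus small was 0.05, 0.04, -0.02 and -0.04 in the controls and 0.05, 0.22, 0.18 and 0.00 after hypoxia. Hypoxia 2 and 3 thus showed a lower small subunit, whereas hypoxia 1 and 4 lay inside the control range, and the groups overlapped. The difference between the subunits' median changes was 0.15, and 0.13 with the genes sorted by place in the ribosome. Without hypoxia 2 it was 0.09. By share, 25.5% of the large-subunit and 41.4% of the small-subunit genes fell, or 24.5% and 42.3% by place, a difference that was not tested. Over all genes 18.8% fell.

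**Figure D3:**
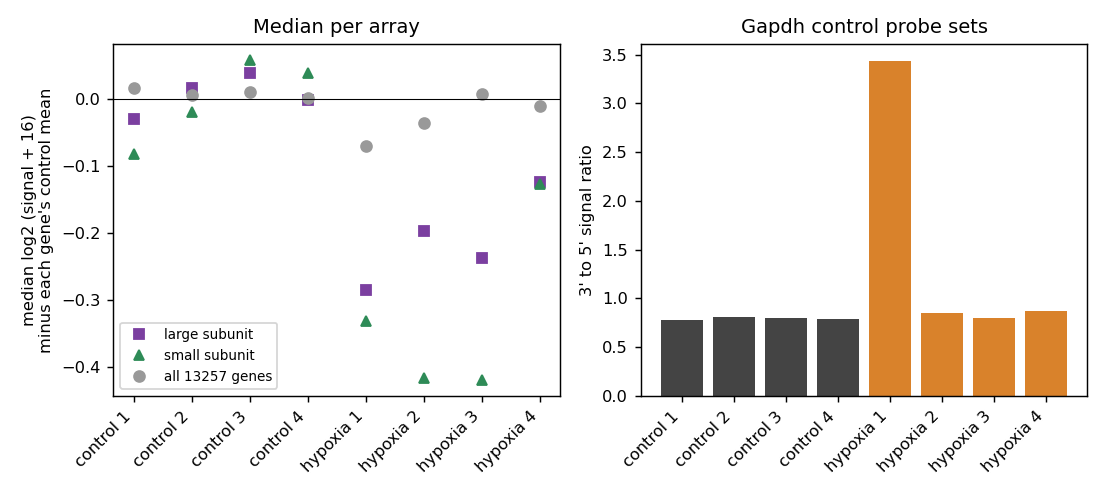
Left, the median over large-subunit genes, small-subunit genes and all 13257 genes of log2 (signal + 16) minus each gene's control mean, for each of the 8 arrays. Right, bars from 0 with the Gapdh ratio of 3' over 5' signal. Both subunit medians are negative in the 4 hypoxia arrays while the median of all genes stays between -0.07 and 0.02, and the Gapdh ratio of hypoxia 1 is 3.44, far above the other arrays.

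Proteins with a bacterial counterpart and those added in mitochondria were counted separately. Of the 43 genes of the first kind 6 rose (14.0%) and 14 fell (32.6%), with a median change of -0.32. Of the 26 of the second kind 4 rose (15.4%) and 8 fell (30.8%), with a median of -0.19. Over all genes tested 14.8% rose and 18.8% fell. The other 7 members were not classified. The difference between these kinds was not tested.

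Groups that do not overlap were found for 35 members, 26 with all hypoxia arrays lower and 9 with all higher, beside 33.4% of all genes, 18.7% lower and 14.8% higher. Of these 35 members 30 had passed the test. The range over the 4 hypoxia arrays was wider than that over the 4 controls in 61 of 76 members, with medians of 0.55 and 0.29 on the log2 scale. The same count was not made over all genes tested or without hypoxia 1, so the wider range is not shown to be particular to these genes.

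Head-to-head gene pairs give a view of members beside their nearest neighbour. On GRCm38.p6, 25 members formed 24 such pairs with starts at most 1000 bases apart, and both genes were tested in 20 of them. Both genes passed the test in 6 pairs, 1 did in 7 and neither in 7. Of the 6 pairs, 2 rose together, 2 fell together and 2 moved in opposite directions. Taken singly, 46.1% of the members and 33.6% of all genes tested had passed. No such count was made over head-to-head pairs of other genes. Shared or opposite movement is therefore not shown to be particular to these pairs.

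Mrps11 and Mrpl46, whose starts lie 42 bases apart on chromosome 7, are the only pair made of 2 members, and both fell. Mrpl46 read 1137, 1316, 1229 and 1158 in the controls and 625, 644, 656 and 917 after hypoxia, apart, a change of -0.77 ± 0.16 (adjusted p = 0.00246). The 41 bases between the starts, printed above, hold none of the 3 motifs searched. Further upstream, within 250 bases of its start, Mrps11 has a match to AAGATGGCG. As this match is not wholly between the starts, it reaches past the start of Mrpl46 into that gene. Mrpl32 and Psma2, which encodes a subunit of the proteasome core, have starts 205 bases apart on chromosome 13 and both rose. Psma2 read 6051, 6963, 7416 and 7626 in the controls and 16954, 15915, 12169 and 12944 after hypoxia, apart, a rise of 1.04 ± 0.15 (adjusted p = 0.000167). In both genes of this pair hypoxia 1 was the highest array, and both passed without it. Mrpl41 rose with Pnpla7, a lysophospholipase gene 935 bases away, which changed by 1.23 ± 0.15 (adjusted p = 6.16e-05). Mrpl14 fell with Tmem63b, a membrane protein gene 131 bases away, by 0.71 ± 0.15 and 0.89 ± 0.21 on the log2 scale (adjusted p = 0.00246 and 0.00519).

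The pairs that moved apart were Mrpl18 with Tcp1 and Mrpl49 with Fau. Mrpl18 read 4464, 4499, 4095 and 4575 in the controls and 2333, 1984, 1869 and 2916 after hypoxia, a fall of 0.97 ± 0.16 on the log2 scale (adjusted p = 0.000413). Tcp1, a subunit of the cytosolic CCT chaperonin whose start lies 238 bases away, read 6554, 7542, 6896 and 6681 in the controls and 15240, 15176, 9655 and 12630 after hypoxia. In neither gene did the groups overlap, and Tcp1 rose by 0.91 ± 0.16 (adjusted p = 0.000781). Mrpl49 fell as given above. Fau, which encodes a cytosolic ribosomal protein fused to a ubiquitin-like part and starts 192 bases away, read 11541, 11499, 8610 and 7979 in the controls and 12982, 15594, 13439 and 16097 after hypoxia, apart, a rise of 0.57 ± 0.16 (adjusted p = 0.0142). All 4 genes of these pairs also passed in the same direction without hypoxia 1. Mrpl43 rose, from 1828, 1952, 1872 and 1691 to 2801, 2568, 2683 and 2610 without overlap (0.54 ± 0.13, adjusted p = 0.00548), while Twnk, the mitochondrial DNA helicase 116 bases away, gave -0.08 ± 0.18 (adjusted p = 0.78).

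**Figure D4:**
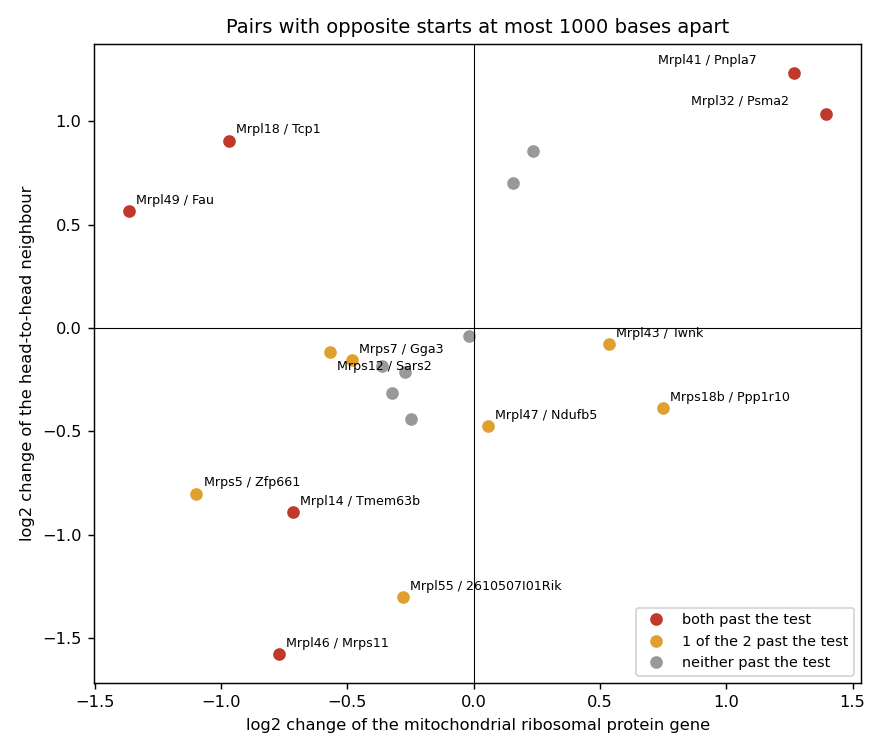
Log2 change of the member (horizontal) against that of its head-to-head neighbour (vertical) for the 20 pairs with both genes tested, from 4 arrays a group. Red points mark the 6 pairs in which both genes passed the test, of which Mrpl18 / Tcp1 and Mrpl49 / Fau lie in the quadrant of opposite directions.

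Upstream sequence was available in the RefSeq table for 67 of the 76 members, with 73 starts. In the 250 bases before the start, on both strands, the NRF-1 letters (GCGC, any 2 bases, GCGC) were present at 9 of 73 member starts (12.3%), against 9.29% of the 13633 starts of genes tested and 4.98% of all 32851 starts in the table. CCGGAAG was present at 17 (23.3%), against 11.9% and 6.91%, and AAGATGGCG, a core of the YY1 site, at 2 (2.74%), against 0.99% and 0.606%. The motifs did not go with 1 direction. Of the 9 genes with the NRF-1 letters 4 rose, 2 fell and 3 did not pass, and of the 17 with CCGGAAG 2 rose, 5 fell and 10 did not pass. Mrpl9 and Mrpl39, both shown above with the same 10 letters GCGCATGCGC, illustrate this. Mrpl9 rose, as given above, whereas Mrpl39 read 5551, 5392, 5869 and 5816 in the controls and 4637, 2393, 2626 and 2985 after hypoxia, without overlap, and fell by 0.88 ± 0.19 on the log2 scale (adjusted p = 0.0028). Of the genes with these motifs that rose, Mrpl9, Mrpl17 and Mrpl57 did not pass with their probe sets averaged. Mrpl9 did not pass without hypoxia 1 either. A match describes letters only and shows no binding.

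How far a gene's own probe sets went the same way was checked for the 36 members with more than 1 past the filter. In 22 of these all probe sets had the same sign and in 14 at least 1 had the opposite sign. Of the 18 such members that passed the test, 11 were of the first kind and 7 of the second, namely Mrpl35, Mrpl57, Mrpl17, Mrpl34, Mrpl19, Mrps2 and Mrps5. In 4 of these 7, Mrpl35, Mrpl57, Mrpl17 and Mrps2, the gene had been called higher. Some members that did not pass had other probe sets with an adjusted p under 0.05 over all probe sets (limma). These were Mrpl3 (-0.63 and -1.12), Mrpl21 (-1.35), Mrpl50 (0.46), Mrpl51 (-0.88), Mrps9 (-0.60) and Mrps24 (-0.45). Their result thus depends on the probe set chosen. With all probe sets of a gene averaged, 6 members rose instead of 11, and Mrpl35 and Mrpl57 changed sign, to -0.27 and -0.038. Mrpl17 (0.0056), Mrpl9 (0.36), Mrps2 (0.18) and Mrpl34 (-0.25) kept their sign but did not pass, and Mrpl51 did (-0.45, adjusted p = 0.0243). With that mean 26 members fell instead of 24. When all 137 probe sets past the filter were counted, 16 rose and 39 fell.

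**Figure D5:**
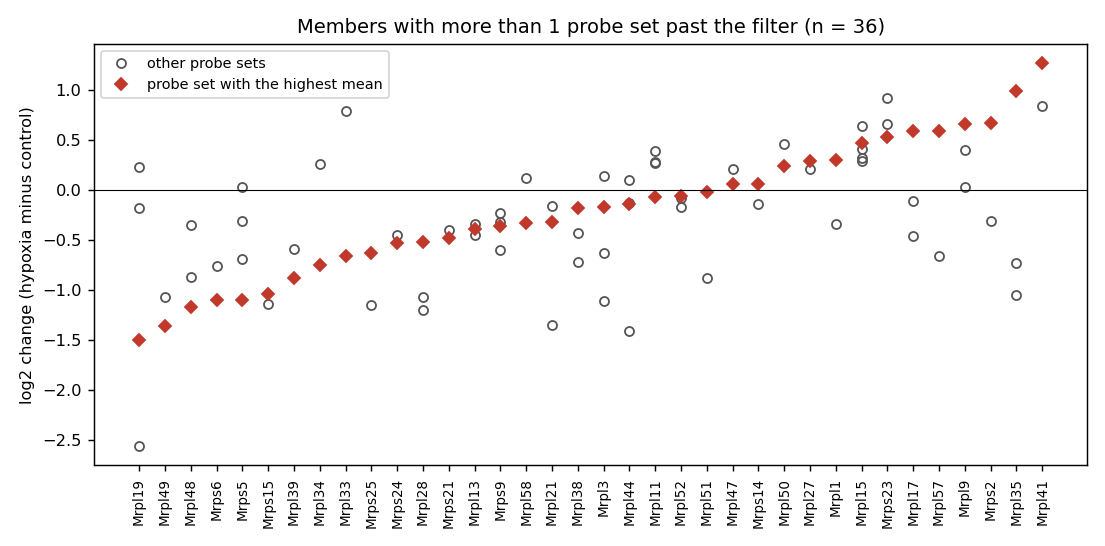
Log2 change of each probe set past the filter for the 36 members with more than 1, ordered by the change of the probe set with the highest mean (red diamonds), with other probe sets as open circles. Points of 1 gene lie on both sides of 0 in 14 members, and the largest gap within a gene that rose is that of Mrpl35, from 0.99 to -1.05.

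Other genes of mitochondrial translation were read from lists of known members. Of the 4 tested mitochondrial ribosomal proteins with other symbols, 3 fell and none rose, with a median change of -0.69. Over all genes tested 18.8% fell and 14.8% rose. Ptcd3, a small-subunit protein of the pentatricopeptide repeat family, read 2419, 2031, 2305 and 2137 in the controls and 1032, 1096, 1154 and 1053 after hypoxia, apart, a fall of 1.02 ± 0.13 on the log2 scale (adjusted p = 7.87e-05). Chchd1, another small-subunit protein, fell by 0.93 ± 0.13 (adjusted p = 0.000167), from 10624 ± 931 to 5562 ± 580 (SD, n = 4 each). Gadd45gip1 of the large subunit fell by 0.45 ± 0.14 (adjusted p = 0.0249), and Dap3 of the small subunit gave 0.17 and did not pass.

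Among 24 tested genes of ribosome assembly 2 rose and 6 fell, with a median of -0.17. Malsu1, an assembly factor of the large subunit, read 4557, 5172, 5687 and 5396 in the controls and 19266, 11204, 11402 and 8251 after hypoxia. All hypoxia arrays were above the controls, hypoxia 1 the most, and the rise was 1.20 ± 0.21 (adjusted p = 0.000876), or 0.97 without hypoxia 1. Mettl17, a small-subunit assembly factor, and Nsun4, a ribosomal RNA methyltransferase, fell by 0.87 ± 0.21 and 0.66 ± 0.16 on the log2 scale (adjusted p = 0.00601 and 0.00631).

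Of 13 tested translation factors and regulators 1 rose (7.69%) and 7 fell (53.8%), with a median of -0.66. Over all genes 14.8% rose and 18.8% fell. Lrpprc, which stabilises mitochondrial messenger RNAs, read 1675, 1550, 1516 and 1565 in the controls and 583, 496, 675 and 632 after hypoxia, apart, a fall of 1.39 ± 0.15 on the log2 scale (adjusted p = 1.58e-05). Gfm2, a ribosome recycling factor, and Tufm, the elongation factor that delivers aminoacyl-tRNA, fell by 1.02 ± 0.18 and 0.78 ± 0.17 (adjusted p = 0.000905 and 0.00326). Guf1, an elongation-type GTPase, rose by 0.77 ± 0.22 (adjusted p = 0.017). The median of the 11 tested genes of mitochondrial transcription and DNA maintenance was -0.08, and 18.2% of them passed, against 33.6% of all genes. Of the 11 genes 1 rose and 1 fell. These were Ssbp1, which coats single-stranded mitochondrial DNA (0.56 ± 0.17, adjusted p = 0.0226), and Mgme1, a mitochondrial exonuclease (-0.48 ± 0.17, adjusted p = 0.0456). Without hypoxia 1, Mgme1 did not pass (adjusted p = 0.0924) and Polrmt, the mitochondrial RNA polymerase, did as lower, so the counts of the 4 lists were the same. The medians without hypoxia 1 were -0.67 for the proteins with other symbols, -0.26 for assembly, -0.65 for translation factors and -0.13 for transcription and DNA maintenance.

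For comparison, of 39 tested ribosomal proteins of the cytosol 15 rose and none fell, with a median change of 0.30. Of 35 tested subunits of respiratory complex I 1 rose and 23 fell, with a median of -0.59. By share 38.5% of the former rose, against 14.8% of all genes, and 65.7% of the latter fell, against 18.8%. Without hypoxia 1, 15 of the former rose, with a median of 0.19, and 28 of the latter fell, with a median of -0.63. The median of the mitochondrial ribosomal proteins lay between those of these groups. The differences between the groups were not tested.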

How the data were processed

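Total RNA of 8 quadriceps samples, 4 control and 4 hypoxia by their titles, was read on 1 array each. The deposited values are signal intensities, 1 per probe set and array, and the submitters' processing notes name MAS5, Affymetrix's algorithm that subtracts background, summarises a probe set and scales each array. The sources used here give neither its version nor detection calls. Dim probe sets have noisy MAS5 values, and the number of arrays limits the precision. The deposited intensities were transformed as log2(signal + 16) with no further scaling, because dim values are steadied by the added 16 while their fold changes are understated. Of 45101 probe sets, 64 control probe sets and the dimmest 40% by mean log2 value were left out (27022 stayed, with the limit at a signal of 90.2), and 22840 with 1 symbol gave 13257 genes, each read from its probe set with the highest mean. Gene names came from the platform's annotation. All genes were fitted together with limma 3.58.1 (lmFit and eBayes with trend, R 4.3.3, two-sided, Benjamini-Hochberg adjustment, threshold 0.05), tested on simulated data. Medians and counts over members are descriptions without a test.

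The numbers in the titles are not said to pair samples. Same-numbered control and hypoxia arrays had correlations of their deviations between -0.07 and 0.00, so no block was used. Such values cannot exclude a pairing with a small effect, and a fit with a replicate block is among the alternatives. Named were the 8 largest rises and 8 largest falls among members past the test, the 3 members with the highest mean signal of each subunit, members past the test with an opposite probe set, the Mrps18 genes, Mrps30 and Mrps36, and up to 3 genes of each pathway list. Genes of head-to-head pairs, those with a motif shown, Mrpl12, Mrpl33 and Mrpl58, and further members past the test were named after their values were seen. The members, lists and tests were chosen with earlier results of these data known. Alternatives were quantile normalization, median centring over all probe sets, other values added before the log, other filters and probe set choices, limma without trend, with robust estimation, with array weights or with a replicate block, subunits by place, and leaving out each array. The assignment of proteins to bacterial counterparts and to places in the ribosome follows their general nomenclature.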

Additional observations from a re-analysis of the deposited data

Results flagged for a closer look

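Of 62 groups of 4 values checked, signals of members and control ratios among them, 9 had 1 array standing far from the other 3. Chance gives about 1 in 20 such groups. Mrpl33 was added to the check because hypoxia 1 had been seen to stand apart in it. Its flag was therefore fixed beforehand and cannot be set against that rate. Hypoxia 1 was that array 4 times, Mrpl33 included. Its Gapdh ratio of 3' to 5' signal was 3.44, with the others at 0.801 to 0.874, and its beta-actin ratio was 2.53, with the others at 1.40 to 1.59. Mrpl33 had a signal of 12422 in hypoxia 1, with the others at 2142 to 3798, and Mrpl57 had 4550, with the others at 6106 to 6198. In hypoxia 3 the signal of Mrpl48 was 1404, with the others at 1541 to 1558. Control 2 stood above the other controls in Mrpl32 (2890, others 2498 to 2541), Mrps14 (7594, others 6386 to 6481) and Mrps28 (5755, others 4690 to 4793). Control 1 stood below them in Mrpl23 (5191, others 5763 to 5849).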

How the results depend on the processing

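The members' median change was negative, and more members fell than rose, under every alternative run. With a gene's probe sets averaged 6 members rose, and Mrpl35 (-0.27) and Mrpl57 (-0.038) had the opposite sign and did not pass. With all probe sets as units, an alternative chosen after seeing the data, 7150 probe sets passed over the whole table, and 39 of the 137 probe sets of members fell. Median centring moved the members' median to -0.19, and the median of all genes from -0.04 to 0.04. Leaving out each array in turn gave 3750 to 4466 genes called, 9 to 10 members higher, 19 to 25 lower, a median from -0.33 to -0.24 and a large minus small difference from 0.09 to 0.21. In these runs 12.2% to 14.4% of all genes were higher and 15.7% to 19.5% lower. With a replicate block 10 members rose and 22 fell, and Mrpl15, Mrps16 and Mrps22 no longer passed. Of the 35 members past the test, 21 passed in the same direction under every alternative that gave them a value, 4 higher and 17 lower (Mrps12, one of these, had none without probe sets that can bind related transcripts). Without each array in turn 25 passed, and the others were Mrpl9, Mrpl15, Mrpl28, Mrpl34, Mrps5, Mrps7, Mrps16, Mrps22, Mrps23 and Mrps28. Of 520 recomputed values of the 26 named members, 503 stayed on the same side of the threshold. Of the rest, 10 no longer passed, 5 passed only then and 2 changed sign from or to a value past the test. Any change of sign where neither value passed was counted among the 503. Signal over background limits the dim probe sets. The small number of arrays limits the rest, as does RNA quality, since the beta-actin ratio was higher in all hypoxia arrays than in the controls and highest in hypoxia 1.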
